A study of Mus musculus with 9 samples.

Results

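RNA from the cortex of homozygous Cyfip2 knockout embryos (KO) was set against RNA from wild-type embryos (WT), library by library and gene family by gene family. The comparison used 6 of the 9 libraries in the study, 3 KO and 3 WT. The other 3 are heterozygous (Het) and entered the main fit only through its shared estimate of the spread. In the fits with a covariate or with weights on libraries, the Het libraries also affect the fold changes of KO against WT. All came from poly(A) RNA (TruSeq Stranded mRNA kit) and were labelled as cortex of C57BL/6J embryos at embryonic day 18.5, with genotype as the stated difference. The labels give neither the mutant allele nor whether each library stands for its own embryo. The p-values therefore reflect only how far these libraries scatter, which may be technical. The table holds 18820 genes, and the 15069 whose mean over all 9 libraries reached 10 were analysed on the log2(value + 1) scale. Values are normalised counts, meaning gene counts that the authors divided by a size factor for each library.

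The protein made from Cyfip2 is part of the WAVE regulatory complex. This complex holds a WAVE protein inactive until the small GTPase Rac binds it, after which WAVE switches on the Arp2/3 complex and a branched actin network grows. In neurons such networks drive growth cones and shape dendritic spines. Cyfip2 and its close relative Cyfip1 also bind the fragile X protein FMRP, which represses translation, and variants of the human gene are known in early-onset epilepsy.

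Totals per library lay between 36.03 M and 37.66 M (M, mega) after the authors' scaling. The approximate depth was 29.5 to 40.7 M reads in KO and 30.8 to 54.4 M in WT. The cortical transcription factor Emx1 was between 1005 and 1244 in the 6 libraries, so this marker of the labelled tissue was present in each. Other features differed between libraries of 1 genotype. The Y-linked genes Ddx3y and Eif2s3y were listed at 0 in KO replicates 1 and 2, which makes these 2 libraries female, and KO replicate 3 and all 3 WT libraries male. Cdhr1, a gene of olfactory bulb mitral cells, was at 3237 and 2138 in KO replicates 1 and 2 and 2230 in WT replicate 3, against 21.8 to 45.1 in the other 3. Of 10 olfactory bulb genes, 8 had a higher mean in KO, and their summed level ran from 3533 to 9076 in KO and from 4426 to 6932 in WT. Their median log2 fold change turned from 0.25 to -0.48 with sex as a covariate and to -0.46 in the male libraries alone, which set KO replicate 3 against WT. Sex and genotype therefore overlap in part, and the medians of many families below differed between these fits.

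Cyfip2 was measured first, since it is the targeted gene. It was at 10169, 10344 and 11174 in WT replicates 1, 2 and 3, and at 7900.3, 7522 and 8255 in the KO replicates in the same order. All KO libraries lay below all WT libraries, and the KO mean was 74.7% of the WT mean. The log2 fold change was -0.42 ± 0.06 (limma standard error, SE), with an adjusted p = 0.678 over all genes. Most of the RNA counted for Cyfip2 was thus still present in the libraries labelled KO. The gene spans 46193850 to 46312859 of chromosome 11 (minus strand, GRCm38), and 1 value for all of it cannot show whether a part is missing.

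Fndc9, a gene for a fibronectin type III domain protein, sits on the opposite strand within Cyfip2, from 46235531 to 46239872. It was at 29.4, 64.6 and 34.1 in WT and at 2.46, 4.50 and 0.914 in KO. The lowest KO value is worth about 1 read. The log2 fold change was -3.64 ± 0.48 with an adjusted p = 0.589, the smallest of any gene (limma). The exact permutation p was 0.10 for both genes, two-sided, which is the smallest that 3 libraries against 3 can give. The sources used here do not say whether counting used the strand, so reads of Fndc9 and of Cyfip2 introns cannot be told apart.

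The promoter windows of these 2 genes are shown because both genes stood lowest in p and are read from opposite strands of 1 locus. They are RefSeq sequences (GRCm38.p6) from 250 bases before to 50 bases after the RefSeq start, 5′ to 3′ on the gene's own strand. The windows are chr11:46312309-46312608 on the minus strand for Cyfip2 and chr11:46235307-46235606 on the plus strand for Fndc9. The Cyfip2 window lies wholly inside the gene span given above, which came from another annotation (GENCODE M21) with a start further upstream. Capitals mark the dinucleotide CG, which reads the same on both strands.
Cyfip2: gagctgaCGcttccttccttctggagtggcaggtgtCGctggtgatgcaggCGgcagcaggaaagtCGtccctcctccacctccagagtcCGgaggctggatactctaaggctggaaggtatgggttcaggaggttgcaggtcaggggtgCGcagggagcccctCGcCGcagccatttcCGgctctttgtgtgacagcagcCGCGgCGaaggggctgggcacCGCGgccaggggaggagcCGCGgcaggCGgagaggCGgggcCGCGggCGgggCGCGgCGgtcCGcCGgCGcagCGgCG
Fndc9: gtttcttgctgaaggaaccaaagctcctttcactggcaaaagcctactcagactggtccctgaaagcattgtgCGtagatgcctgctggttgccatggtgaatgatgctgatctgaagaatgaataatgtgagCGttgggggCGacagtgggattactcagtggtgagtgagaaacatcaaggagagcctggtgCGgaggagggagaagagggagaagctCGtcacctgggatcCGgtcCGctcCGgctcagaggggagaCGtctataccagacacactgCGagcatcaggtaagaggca
The Cyfip2 window holds 29 CG dinucleotides and is 70.7% G or C, and 12.9% of the 32851 promoter windows in the table hold at least as many. The Fndc9 window holds 10 and is 53.7% G or C, and 43.5% of windows hold at least as many. At least 1 CG occurs in 94.6% of windows, so its presence alone does not set either promoter apart.

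**Figure D1:**
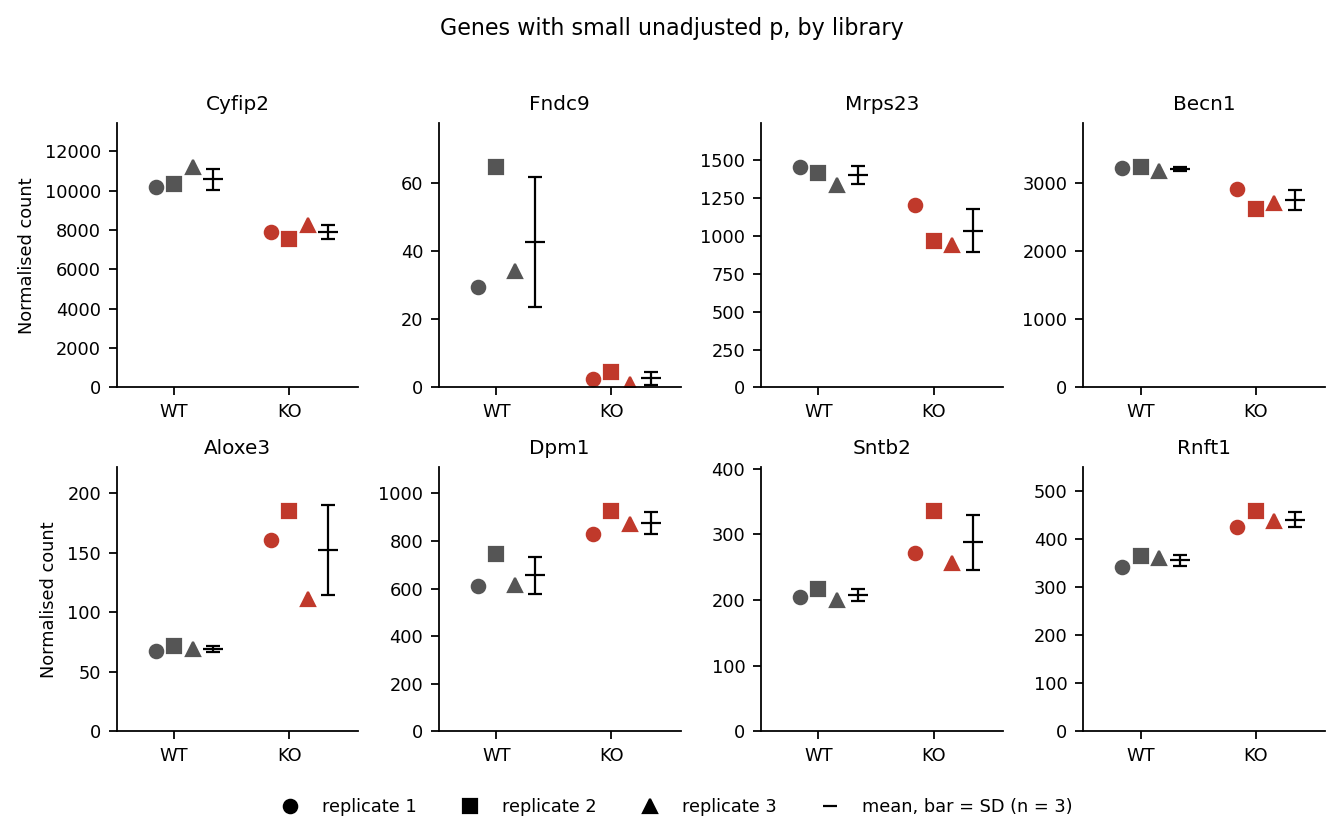
Normalised counts (vertical axis, from 0) of 8 genes with small unadjusted p in each of the 3 WT (grey) and 3 KO (red) libraries, with symbols for replicate number and a bar for the mean ± SD (n = 3). Cyfip2, Fndc9, Mrps23 and Becn1 lie lower in every KO library than in any WT library, and Aloxe3, Dpm1, Sntb2 and Rnft1 higher.

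Across all genes, limma called 0 of 15069 at an adjusted p under 0.05 (0%). At an unadjusted p under 0.05, 82 genes were higher in KO (0.544%) and 96 lower (0.637%). Together these are fewer than the share of 0.05 that calibrated p-values would give with no difference. The absence of calls therefore does not show that the genotypes are alike, and the reason for the low share was not tested. For 477 genes all KO libraries lay above all WT libraries (3.17%), and for 497 all lay below (3.3%). These shares are the background for every count below. They depend on level: among genes with means from 10 to 100, 5.84% lay above and 2.41% below, while from 1000 to 10000 the shares were 1.92% and 3.95%. The median log2 fold change was -0.00, and 81.8% of genes had one under 0.2 in size.

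Precision differed between genes. The 95% intervals of the log2 fold change came from the fit to all 9 libraries and were not adjusted for the number of genes. They lay within ±1 for 12718 genes (84.4%) and within ±0.5 for 9523 (63.2%). The median SE was 0.38 for genes with means from 10 to 100 and 0.08 for those from 1000 to 10000. The precision was lowest for the genes near the filter.

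**Figure D2:**
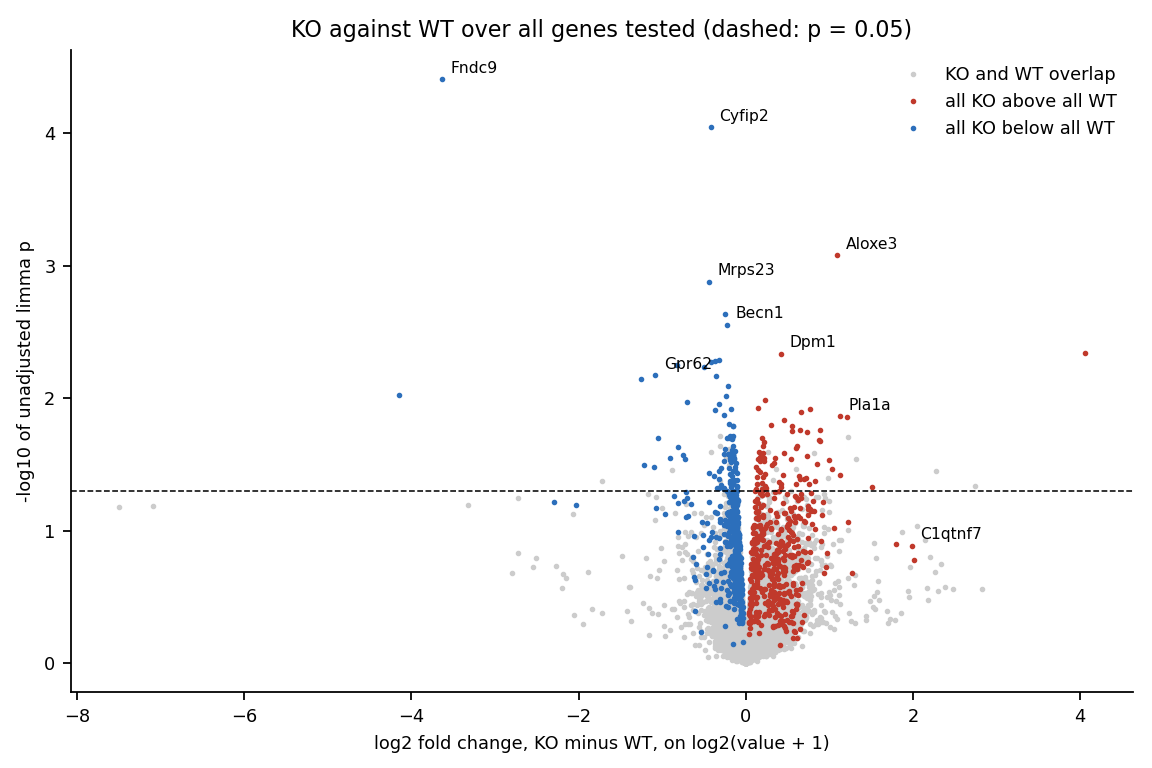
Each point is a gene with a symbol: log2 fold change of KO against WT (horizontal axis) against -log10 of the unadjusted limma p (vertical axis), with a dashed line at the unadjusted threshold. Fndc9 and Cyfip2 stand highest, and genes whose KO and WT libraries do not overlap (red above, blue below) spread along both arms without passing the adjusted threshold.

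Of the genes higher in KO, gene models and pseudogenes left out, the 12 with the smallest p are described first. None passed (adjusted p = 1.00 for each, limma). Aloxe3, a lipoxygenase best known from the skin barrier, was at 67.1, 72.0 and 69.2 in WT and at 161, 185 and 111 in KO. Its log2 fold change was 1.09 ± 0.22 and its KO mean 219% of WT. Dpm1, which catalyses the synthesis of dolichol phosphate mannose for glycosylation, was at 609.6, 744 and 613 in WT and at 829.9, 924 and 872 in KO. The 3 KO values of Dpm1 lay close together, and its log2 fold change was 0.42 ± 0.11. Pds5b, which regulates the cohesin ring around chromosomes, showed the tightest separation, with 4297, 4371 and 4452 in WT and 4811, 4853 and 4807 in KO. That is a log2 fold change of only 0.14 ± 0.04.

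Slc4a10, a neuronal bicarbonate transporter, was at 831, 1269 and 1649 in WT and 1845, 2116 and 1760.4 in KO (log2 0.66 ± 0.21), with a wide range among the WT libraries. Kcnmb2, an accessory subunit of the BK potassium channel, was at 96.96, 131 and 136 in WT and 161, 188 and 182 in KO (0.56 ± 0.19). Sntb2, a syntrophin that links membrane proteins to the dystrophin complex, had 204, 217 and 199.9 in WT and 272, 335 and 256 in KO (0.46 ± 0.15). The small GTPase Arl4a (0.23 ± 0.07), the ubiquitin ligase Rnft1 (0.31 ± 0.10) and the T cell kinase Zap70 (0.77 ± 0.24) also separated fully. So did the phospholipase Pla1a (1.12 ± 0.36), the retinol dehydrogenase Rdh1 (0.65 ± 0.22) and the ciliary dynein docking gene Ttc25 (0.88 ± 0.30). Zap70, Pla1a, Rdh1 and Ttc25 had WT means of 10.2 to 39.9, near the filter on low values.

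Among the lower genes 2 encode proteins of the small subunit of the mitochondrial ribosome. Mrps23 was at 1454, 1418 and 1335 in WT and 1203, 964 and 943 in KO, a log2 fold change of -0.44 ± 0.10. Mrps11 was at 683, 714 and 683 in WT and 545, 516 and 608 in KO (-0.32 ± 0.09). Becn1, which encodes the autophagy initiator Beclin 1, was at 3211, 3226 and 3167 in WT and 2905, 2621 and 2699 in KO (-0.23 ± 0.05). The WT values of Becn1 differed by less than its distance to any KO library. Rlbp1, a carrier of retinaldehyde found in glia, had a log2 fold change of -0.25 ± 0.06, and Mycbp, a binding partner of Myc, one of -0.83 ± 0.23. None of these passed either (adjusted p = 1.00, limma).

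A pair of protocadherins stood in the same list. Clustered protocadherins are neuronal surface proteins, and each neuron uses its own subset of them. Pcdhb3 was at 196, 198 and 206 in WT and 150.02, 148 and 150.13 in KO (-0.42 ± 0.11), with little spread in either genotype. Pcdhgb1 had a log2 fold change of -0.36 ± 0.10, but the gamma genes share their last exons, so its own level is uncertain. The list ended with Tmem254a (-0.36 ± 0.10), which has near-identical copies, Ly6g6e (-0.50 ± 0.14), a Ly6 family protein, and the orphan receptor Gpr62 (-1.09 ± 0.31). Gpr62 was at 13.0 to 15.6 in WT and 4.96 to 6.67 in KO, a few reads per library.

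The largest differences without overlap came mostly from low genes. Gene models and pseudogenes are left out here, among them a pseudogene at log2 4.05 ± 1.07. The 6 largest of the rest on the higher side were Igflr1 (log2 2.02 ± 1.34), C1qtnf7 (1.98 ± 1.18), Aox3 (1.80 ± 1.06), Eps8l2 (1.27 ± 0.93), Oas3 (1.22 ± 0.63) and Csf2rb2 (1.12 ± 0.46). Their WT means were 6.24 to 11.8. C1qtnf7 encodes a secreted C1q-like protein and was at 16.9, 7.62 and 10.8 in WT and 70.4, 32.5 and 46.2 in KO. Eps8l2, an actin-binding relative of Eps8, was at 4.87, 6.18 and 7.68 in WT and 14.99, 20.02 and 14.2 in KO. The SE also takes in the Het libraries, where C1qtnf7 was at 12.2, 48.1 and 0 and Eps8l2 at 9.20, 17.5 and 0. Oas3 rested on KO replicate 2, at 48.2 against 10.7 and 8.14. On the lower side, beside Fndc9 and Gpr62, they were Vwa3b (-1.22 ± 0.48), Sec14l5 (-1.07 ± 0.51) and the Y-linked Kdm5d (-2.29 ± 1.06) and Uty (-2.03 ± 0.96). Kdm5d was at 281 and 338 in the female KO libraries and 2446 in the male one, against 2813 to 3341 in WT.

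The WAVE complex and the actin machinery around it had small values. Apart from Cyfip2, no tested member of the 11 WAVE genes separated KO from WT, and their median was 0.02 (-0.006 in the male libraries alone). Cyfip1, which can take the place of Cyfip2 in the complex, was at 3968, 3807 and 3705 in WT and 3824, 4090.5 and 3768 in KO, with a 95% interval of the log2 fold change from -0.10 to 0.15. The adaptor Abi1 was at 2792, 2660.4 and 2529.8 in WT and 2734, 2844 and 2947 in KO, and the scaffold Nckap1 had a log2 fold change of -0.09 ± 0.08. Of the 10 Arp2/3 subunits, which form the branch point itself, 9 had a negative value, with a median of -0.04 (-0.10 without KO replicate 3, -0.01 in the male libraries alone) and none without overlap. Actr3, the Arp3 subunit, was at 9653, 9025 and 9445 in WT and 8096, 8752 and 9309 in KO.

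Of 18 formins and Ena/VASP proteins, which build unbranched filaments, 13 were higher with a median of 0.04, which turned to -0.008 without KO replicate 1 and -0.02 without KO replicate 2. Of 18 cofilin, profilin and LIM kinase genes 6 were higher with a median of -0.01, which turned to 0.01 with sex as a covariate and 0.03 in the male libraries alone. No member of either group separated the genotypes. FMRP and the cap-binding factors, the translation side of Cyfip2, had 7 of 19 higher and a median of -0.02 (0.007 in the male libraries alone), again with no member separate.

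Genes that build and maintain proteins lay slightly lower in KO as groups. Of 78 mitochondrial ribosomal proteins, 69 had a negative value, the median was -0.08, and 11 lay below all WT libraries (14.1%) and 0 above. Besides Mrps23 and Mrps11, Mrpl14 of the large subunit had an unadjusted p under 0.05, at 446, 502 and 457 in WT and 379.8, 422 and 372 in KO. As the median distance from the WT mean, the list stood at -0.06, -0.15 and -0.02 in KO replicates 1, 2 and 3, and at -0.01, 0.04 and -0.04 in the WT libraries. KO replicate 3 thus lay inside the WT range, and KO replicate 2 was farthest from it. The list median was -0.04 without KO replicate 2 and -0.02 in the male libraries alone.

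Other housekeeping machines had differences of the same size, again with KO replicate 2 lowest. Of 36 nuclear subunits of respiratory complex I, 34 were lower, with a median of -0.08 and 8 below all WT libraries (22.2%). Ndufv1, a subunit of its NADH-binding part, was at 3728, 3752 and 3602 in WT and 3494, 3257 and 3599 in KO. Of 79 cytosolic ribosomal proteins 73 were lower (median -0.07, 9 below), of 38 proteasome subunits 35 (median -0.07, 5 below) and of the 7 subunits of the CCT chaperonin all 7 (median -0.08, 1 below). Without KO replicate 2 the median was -0.03 for the proteasome, -0.04 for the chaperonin and -0.05 for complex I and for the cytosolic ribosome. Rps16 of the small ribosomal subunit was at 8949.6, 8904 and 9023 in WT and 8396, 7947 and 8002 in KO (log2 -0.14 ± 0.05). The proteasome ATPase Psmc1 (-0.11 ± 0.05) and the chaperonin subunit Cct8 (-0.09 ± 0.05) also lay below in every KO library. The share of all genes below WT at means from 1000 to 10000, given above as 3.95%, is the nearer background for genes of that level. The cytosolic ribosomal list stood at -0.03, -0.10 and -0.06 in KO and 0.05, 0.03 and -0.08 in WT, so only KO replicate 2 lay outside the WT range. Of the 13 genes encoded in the mitochondrial genome 7 were higher, with a median of 0.01 that turned to -0.10 without KO replicate 3.

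Interferon response genes, which cells switch on against viruses, were higher for 17 of 19 members, with a median of 0.34 and 4 above all WT libraries (21.1%). Oasl2, of the oligoadenylate synthetase family, was at 35.7, 62.5 and 79.2 in WT and 140.3, 82.3 and 124 in KO (log2 0.99 ± 0.38). Xaf1 was at 25.7, 25.9 and 72.4 in WT and 71.0, 108 and 84.8 in KO, and Usp18, which limits interferon signalling, at 10.8, 23.0 and 41.8 against 51.6, 24.6 and 59.4. WT replicate 3 was high in each. The list medians were 0.37, 0.16 and 0.29 in KO and -0.40, -0.06 and 0.51 in WT, so all KO libraries lay within the WT range. With sex as a covariate the median was 0.09.

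**Figure D3:**
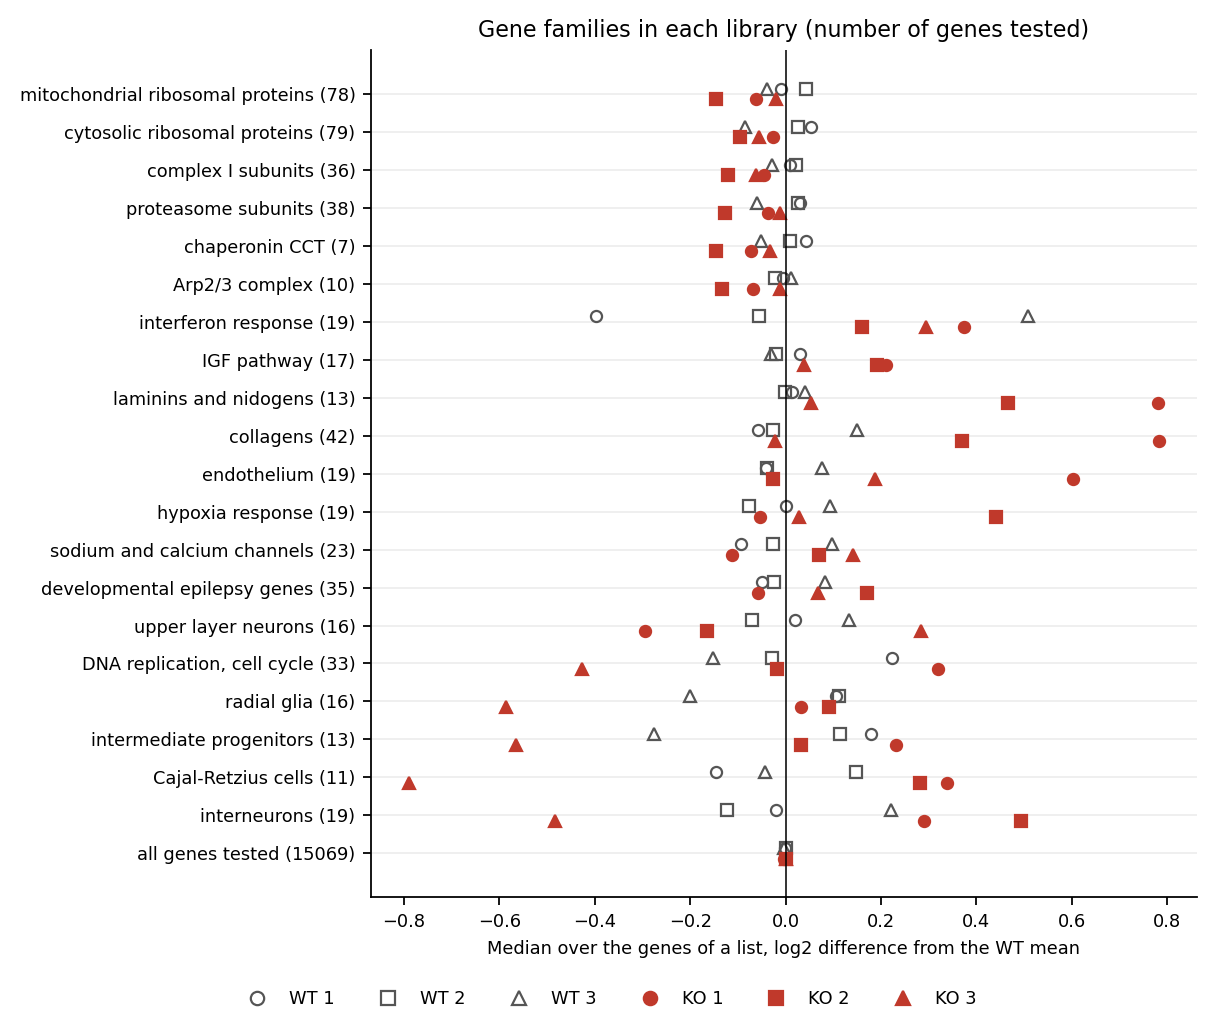
Median over the genes of each list, as the log2 difference from the WT mean (horizontal axis), in each WT library (open grey) and KO library (red), with the number of genes tested in brackets. Housekeeping lists sit just below 0 in KO, matrix and vessel lists are led by KO replicate 1, and progenitor and Cajal-Retzius lists place KO replicate 3 apart from the other KO libraries.

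Growth factor and matrix families were higher in KO replicates 1 and 2 and near WT in KO replicate 3. All 17 members of the IGF pathway had a positive value, with a median of 0.13 and library medians of 0.21, 0.19 and 0.04 in KO. Igf2bp1, which binds the Igf2 mRNA, was at 1539.7, 1529 and 1442 in WT and 1577, 1717 and 1648 in KO (log2 0.13 ± 0.06). No other gene of the 17 was without overlap. After adding sex to the fit, the median was -0.00. Igfbp7, an IGF-binding protein of vessels, was at 714, 784 and 896 in WT and 1023, 1065 and 885 in KO.

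Laminins and nidogens, the network of the basement membrane, had 13 of 13 positive with 4 above all WT libraries (30.8%). Their library medians were 0.78, 0.47 and 0.05 in KO and 0.01, -0.00 and 0.04 in WT. Lamc1, a chain present in most laminins, was at 3334, 3415 and 3389.6 in WT and 6151, 5540.4 and 3946 in KO. The 42 collagens had 39 positive, 8 above (19.0%), and library medians of 0.78, 0.37 and -0.02 in KO. With sex as a covariate the medians turned negative, to -0.09 for laminins and -0.31 for collagens, and in the male libraries alone they were 0.05 and -0.02. In bulk tissue, more cells of a type and more RNA per cell cannot be told apart. Markers of meningeal fibroblasts moved with these families: 18 of 18 were positive, their summed level ran from 27147 to 52815 in KO and 23822 to 29511 in WT, and their part in the result was not tested. Their median too turned, from 0.41 to -0.70 with sex as a covariate and -0.03 in the male libraries alone. The fit with sex also draws on the Het libraries. In Het replicate 3 these markers summed to 2149, and library medians were -0.97 for laminins and -1.07 for collagens. How far this library set the values with sex as a covariate was not tested. The marker list includes the collagens Col1a1, Col1a2 and Col3a1, so it is not independent of the collagen list.

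Vessel genes gave a further set. Of 19 endothelial markers 17 were positive, with a median of 0.29 and 4 above all WT libraries (21.1%). Pecam1, an adhesion molecule of endothelial junctions, was at 992, 999 and 1019 in WT and 1524, 1405 and 1099 in KO (log2 0.41 ± 0.24). Eng, a TGF-beta co-receptor of endothelium, was at 1198, 1131 and 1333 in WT and 1831, 1714 and 1386 in KO (0.42 ± 0.18). KO replicate 1 led for both genes. The list medians were 0.60, -0.03 and 0.19 in KO, of which only KO replicate 2 lay inside the WT range of -0.04 to 0.08. After adding sex to the fit, the median was 0.01, and in the male libraries alone it was 0.19. The fit with sex also uses Het replicate 3, where the list median was -0.69.

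Glycolysis and hypoxia genes singled out KO replicate 2. The hypoxia list had 15 of 19 positive, with library medians of -0.05, 0.44 and 0.03 in KO, and glycolysis enzymes 14 of 17, with -0.02, 0.31 and -0.08. Hk2, the inducible hexokinase, was at 353, 329 and 249 in WT and 452, 960.3 and 271 in KO. Pdk1, which diverts pyruvate from mitochondria, was at 1477, 1608 and 1727 in WT and 1769, 3495 and 1606 in KO. No member of either list separated the genotypes. The medians of 0.12 in both lists turned to -0.04 without KO replicate 2, and that of glycolysis to -0.08 in the male libraries alone.

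Neuronal excitability genes had small medians that depended on the fit. Of 24 glutamate receptor genes 16 were higher (median 0.03), of 19 GABA and glycine receptor genes 15 (0.04), of 23 sodium and calcium channel genes 18 (0.05) and of 34 potassium and HCN channel genes 15 (-0.00). None of these 100 genes separated KO from WT. With sex as a covariate the same medians were 0.13, 0.18, 0.14 and 0.09, and without KO replicate 1 they were 0.12, 0.10, 0.11 and 0.07, so that of the potassium channels turned. Of 35 genes of developmental epilepsies 26 were higher, with a median of 0.05 (0.14 with sex as a covariate, 0.01 without KO replicate 2), and 2 lay above all WT libraries (5.71%). They were the oxidoreductase gene Wwox, at 312, 295 and 322 in WT and 354, 339.7 and 324 in KO, and the X-linked protocadherin Pcdh19, at 2392, 2488 and 2113 in WT and 2527, 2938 and 2522 in KO. Synaptic vesicle genes had 16 of 30 higher (median 0.02), and synaptic adhesion and scaffold genes 20 of 30 (median 0.03). With sex as a covariate these medians were 0.11 and 0.16. The first turned to -0.01 without KO replicate 2 and the second to -0.02 without KO replicate 3.

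Adhesion and guidance families split both ways. Of 55 clustered protocadherins 34 were higher with a median of 0.04 (0.14 with sex as a covariate), 3 lay above all WT libraries and 3 below (5.45% each). The 3 below were Pcdhb3, Pcdhgb1 and Pcdhga1, the last at 916, 924 and 1105 in WT and 619, 851 and 808 in KO. Classical cadherins and delta protocadherins had 16 of 29 higher, and Ctnnd1, the p120 catenin that stabilises cadherins, was at 7364, 7479 and 6726 in WT and 7754, 8103 and 7643 in KO (log2 0.12 ± 0.05). Semaphorins, plexins and neuropilins had 14 of 29 higher with none separate. Ephrins and their receptors had 10 of 21 higher and 2 above, Efna1 (0.38 ± 0.24) and Epha2 (0.58 ± 0.37).

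Developmental signalling families mostly followed the difference between KO libraries. The Wnt list of 39 genes had library medians of 0.27, 0.15 and -0.19 in KO, and the Notch list of 22 genes 0.12, 0.13 and -0.21. Their medians over the genotypes were 0.06 and -0.00, with sex as a covariate -0.11 and -0.12, and in the male libraries alone -0.19 and -0.21. Within the FGF, EGF and PDGF list, 2 of 28 lay below all WT libraries (7.14%), and the median of 0.06 turned to -0.05 in the male libraries alone. Fgfr1, a receptor of cortical progenitors, was at 8222, 8440.2 and 7082 in WT and 6501, 6752 and 5905 in KO (log2 -0.31 ± 0.16). The ligand gene Fgf18 was at 54.7, 61.0 and 61.7 in WT and 47.1, 43.5 and 46.1 in KO (-0.37 ± 0.18).

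Glycosylation and lipid mediator genes were examined because Dpm1 and Aloxe3 led the described genes higher in KO, so these lists are no independent support for them. Of 27 genes of the dolichol and N-glycosylation pathway 12 were higher, with a median of -0.01 that turned to 0.01 without KO replicate 3. Dolpp1, which recycles dolichol, was on the lower side at 1251, 1215 and 1229 in WT and 1104, 1052 and 1183 in KO. Of 9 tested lipoxygenases and partners 7 were higher, with a median of 0.12 that turned to -0.09 with sex as a covariate and -0.11 in the male libraries alone. Ptgs1, a cyclooxygenase, joined Aloxe3 above all WT libraries, at 53.7, 84.3 and 95.3 in WT and 125, 117 and 97.01 in KO. Immediate early genes had 9 of 17 higher with a median of 0.00, p53 targets 6 of 18 with -0.03, and heat shock proteins 6 of 14 with -0.03. In the male libraries alone the median of the immediate early genes was -0.18 and that of the p53 targets 0.006, and with sex as a covariate they were -0.03 and 0.002.

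The KO libraries departed from WT in different directions. Over 15069 genes, the number more than 2-fold above the WT mean was 401, 293 and 88 in KO replicates 1, 2 and 3. More than 2-fold below it lay 106, 71 and 308. In the WT libraries the counts were 44 to 107 above and 49 to 91 below, though each WT library is part of the mean it is set against. Only 18 genes were above by that much in all 3 KO libraries and 6 below. Among genes with a mean of at least 100 these numbers were 3 and 1.

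**Figure D4:**
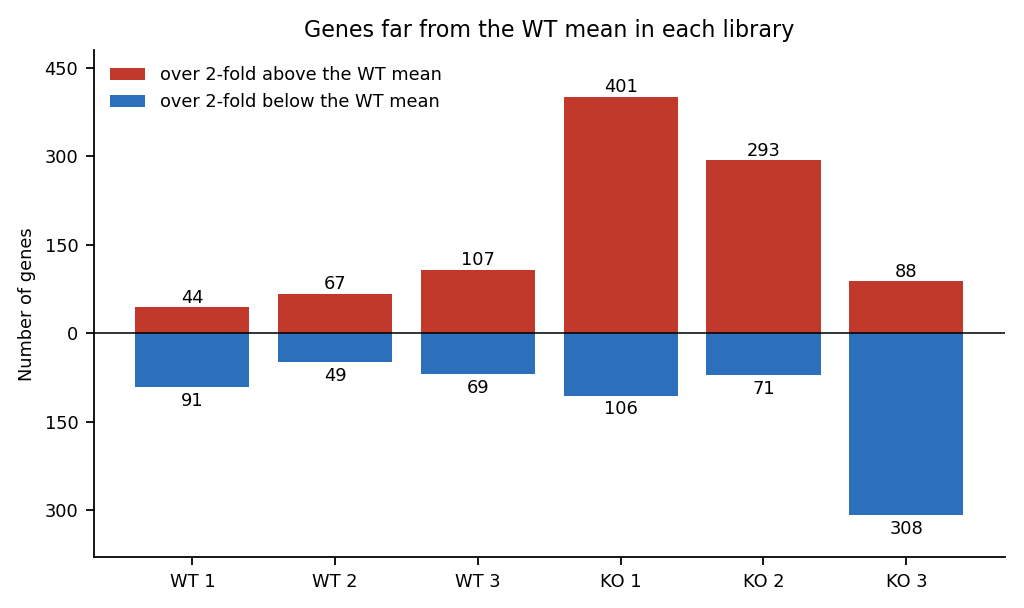
Number of genes (vertical axis) more than 2-fold above (red) or below (blue) the WT mean on the log2(value + 1) scale in each library. KO replicates 1 and 2 have their excess above (401 and 293 genes) and KO replicate 3 below (308 genes).

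Several cell type genes also differed between KO replicate 3 and the other KO libraries. Neurod6, of excitatory neurons, was at 27244, 24380.0 and 26382 in WT and 19991, 19275 and 32658 in KO. The 2 female KO libraries were below every WT library and the male one above every WT library. Hs3st4, of deep layer neurons, followed the same order at 2625, 2631 and 2972 in WT and 1714, 1749.9 and 3601 in KO. The KO means of these genes were 92.2% and 85.9% of WT, values that describe no single library. Over the list of 19 deep layer genes the library medians were -0.06, -0.06 and 0.05 in KO and 0.04, -0.05 and 0.06 in WT. KO replicate 3 thus lay inside the WT range for the list, unlike for Hs3st4.

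Genes of other cells ran the opposite way. Gad1, which makes GABA in interneurons, was at 2218, 1805 and 2518 in WT and 3085, 3666 and 1302 in KO. Reln, of Cajal-Retzius cells, was at 14018, 15636 and 13695 in WT and 17326, 17697 and 9830.4 in KO. Sox2, a stem cell factor of radial glia, was at 1649.9, 1420.0 and 1305 in WT and 1664, 1877 and 947 in KO. Of the 18 striatal markers 16 had a higher mean in KO, and their summed level ran from 8938 to 12284 in KO and 6326 to 8526 in WT. Foxp1, an abundant member, made up 4869 of the sum in KO replicate 3 and was at 3328 to 3839 in WT. Library medians of the striatal list were 1.41, 1.89 and -0.69 in KO, and with sex as a covariate its median turned from 0.68 to -0.49 (-0.69 in the male libraries alone).

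**Figure D5:**
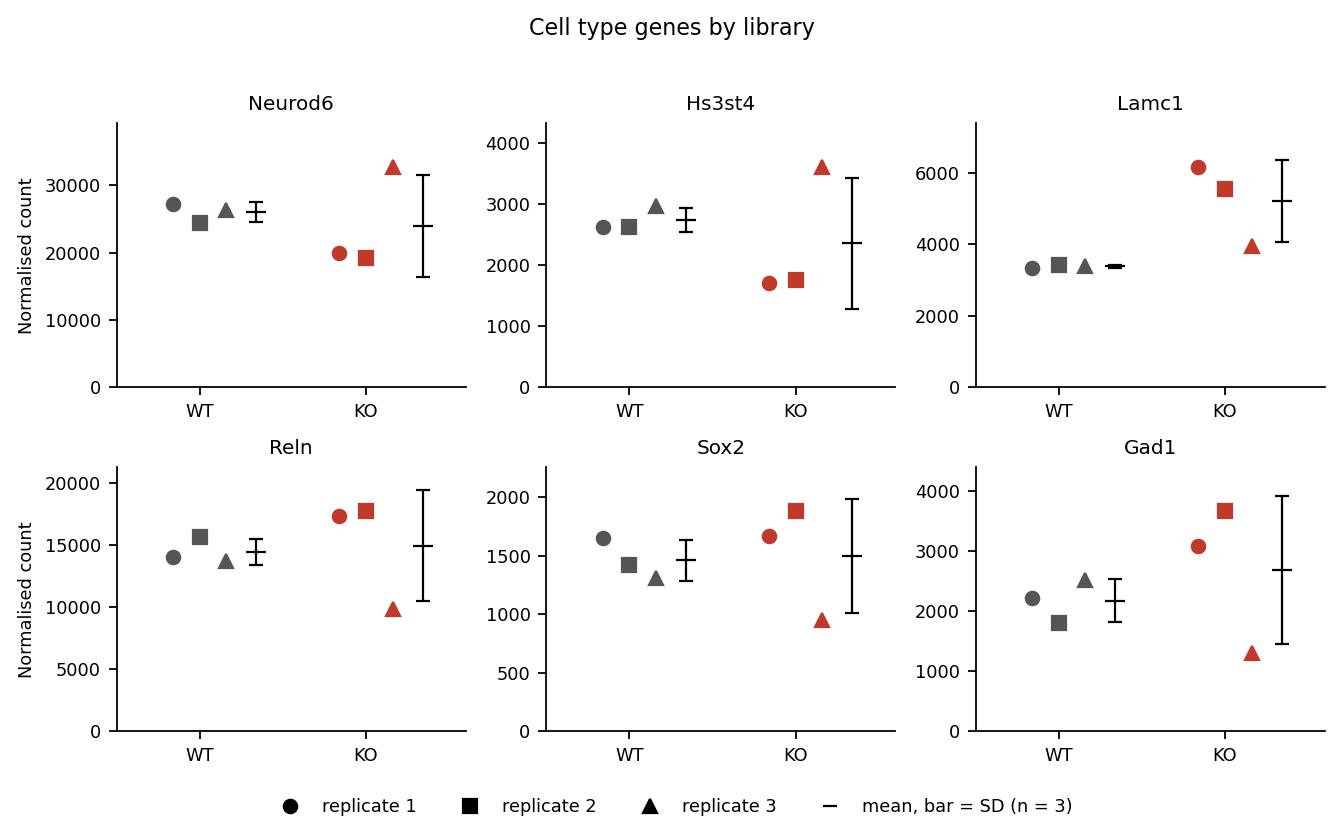
Normalised counts (vertical axis, from 0) of 6 cell type genes in the 3 WT (grey) and 3 KO (red) libraries, with symbols for replicate number and a bar for the mean ± SD (n = 3). Neurod6 and Hs3st4 are highest in KO replicate 3, while Reln, Sox2 and Gad1 are lowest there, and Lamc1 is above WT in all 3 KO libraries.

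Progenitor lists were lower in KO by their mean and by 1 library. Of 16 radial glia genes 15 had a negative value (median -0.13), with library medians of 0.03, 0.09 and -0.59 in KO and 0.11, 0.11 and -0.20 in WT. Of 13 intermediate progenitor genes 12 were negative (median -0.13), with 0.23, 0.03 and -0.56 in KO and 0.18, 0.11 and -0.28 in WT. Replication and cell cycle genes had 24 of 33 negative, with 0.32, -0.02 and -0.43. The median of the replication list was -0.04. Without KO replicate 3 the medians of the 3 lists turned positive, to 0.08, 0.09 and 0.16. With sex as a covariate they were further below 0, at -0.35, -0.41 and -0.40. Sex, olfactory bulb RNA and replicate number coincide in KO replicate 3, so these cannot be told apart in it.

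Genes close to Cyfip2 were also mostly lower. Within 1 Mb, 9 of 12 other tested genes, Fndc9 among them, had a negative value, with a median of -0.23, 4 below all WT libraries and 1 above. Med7, a subunit of the Mediator complex, was at 686, 751 and 711 in WT and 640.0, 546 and 611 in KO (log2 -0.26 ± 0.08). Thg1l, which adds a guanine to histidine tRNA, was at 439, 421 and 401 in WT and 363, 350.3 and 383 in KO (-0.20 ± 0.09). Both separate fully at a distance of 0.124 and 0.238 Mb. Within 5 Mb, 6 of 63 genes lay below (9.52%) and 4 above (6.35%), with a median of -0.02. Within 20 Mb, 13 of 277 lay below (4.69%) and 11 above (3.97%), against 3.3% and 3.17% of all genes. These wider windows include the 4 genes below within 1 Mb.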

How the data were processed

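The authors' deposited table holds a normalised signal, gene counts divided by a size factor for each library, as its header and values show (per the file headers). Named in the submitters' processing notes, with no role or order, are DESeq2 1.19.11, Salmon 0.11.2, R 3.6.0 and GRCm38. Whole reads were not recovered, so no count test was used; the spacing of low values gave the approximate depth. limma 3.58.1 (R 4.3.3) was fitted to all 9 libraries, with a mean for each genotype, on log2(value + 1), with a trend, two-sided, with Benjamini-Hochberg adjustment at 0.05. This scale understates the change of low genes. The script was tested on simulated data. Symbols and coordinates came from GENCODE M21 (18783 of 18820 genes matched). The comparison, members and 69 gene lists were chosen with earlier results of these data known, and lists have counts and medians but no test. Named genes were Cyfip2, WAVE members, the 12 smallest p and 6 largest differences without overlap in each direction, up to 4 genes per list by p, and first markers, without gene models and pseudogenes; not all are printed. Med7 and Thg1l were chosen after their values were seen. Sex was read from 4 Y-linked genes (sum under 1000 called female). Alternatives covered pseudocounts, filters, rescaling, covariates, weights and left-out libraries, and 3 were chosen after seeing the data. Some named genes and 1 list are not reported here.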

Additional observations from a re-analysis of the deposited data

How the results depend on the processing

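No gene was called under 20 of the 21 alternatives run. Without KO replicate 3 limma called 1, a pseudogene, so leaving out 1 library gave 0 to 1 calls. The numbers at an unadjusted p under 0.05 (82 higher, 96 lower) were 45 to 364 higher and 47 to 441 lower when 1 KO or WT library was left out, with both maxima without KO replicate 3. KO and WT libraries of the same number did not vary together (correlations of -0.01, 0.06 and -0.03). The Het libraries were not part of this check, so a pairing by replicate number is not excluded. The replicate block gave 170 higher and 212 lower and no call. A minimum mean of 1 gave 143 higher, one of 100 gave 52 higher, and no filter 169 higher and 157 lower. The 6 libraries alone gave 179 higher, the sex covariate 230 and 302, and array weights 670 and 709. Of the settings chosen after seeing the data, omitting Het replicate 3 gave 198 higher, the male libraries alone 200 higher and 400 lower, and the libraries without olfactory bulb RNA alone 337 and 533. The causes were not tested.

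Cyfip2 stayed between -0.45 and -0.31 and Fndc9 between -4.54 and -2.60 in every alternative run, with Fndc9 not tested at a minimum mean of 100. Cell type genes reversed. With the sex covariate the log2 fold changes were -0.52 for Gad1, 0.042 for Hs3st4, 0.042 for Nckap1, 0.13 for Neurod6 and -0.30 for Reln. With the male libraries alone they were -0.022 for Cyfip1, -0.73 for Gad1, -0.18 for Hk2, 0.40 for Hs3st4, 0.33 for Neurod6 and -0.55 for Reln. Without libraries holding olfactory bulb RNA they were -0.045 for Cyfip1, -0.62 for Gad1, -0.33 for Hk2, 0.45 for Hs3st4, 0.34 for Neurod6 and -0.59 for Reln. The olfactory bulb covariate gave -0.089 for Gad1 and -0.088 for Reln, and array weights 0.17 for Sox2. Leaving out 1 library gave -0.011 to 0.051 for Cyfip1, -0.11 to 0.64 for Gad1, -0.14 to 0.28 for Reln and -0.21 to 0.28 for Sox2. Both settings with KO replicate 3 as the single KO library assume that it varies as the other libraries do.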

Other observations

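Genes with the smallest p lay often on chromosome 11, which carries Cyfip2; this was chosen after the values were seen. The chromosome holds 7.93% of the genes tested. Of the 8 genes with an unadjusted limma p under 0.005, 5 lay on it (62.5%). Of the 19 under 0.01, 6 did (31.6%), and of the 178 under 0.05, 21 did (11.8%). The 5 under 0.005 were Cyfip2 itself, Fndc9 within it, Aloxe3 at 22.8 Mb from Cyfip2, Mrps23 at 41.9 Mb and Becn1 at 55.0 Mb. Over the whole chromosome, 3.598% of genes lay above all WT libraries and 2.93% below.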
